A study of Mus musculus with 6 samples.

Results

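The Ube2 genes encode the E2 enzymes of ubiquitin conjugation and a few relatives. Their messages were followed through an RNA immunoprecipitation (RIP) of CPEB4 from muscle stem cells, the satellite cells that rebuild muscle fibres. Members were the genes of the count table whose symbol starts with Ube2, without the 3 whose symbol holds -ps. This gave 40 of 55376 genes, and 33 of them passed the filter on low counts that left 18054 genes to test. The other 7 were Ube2d2b, Ube2d4, Ube2ql1 and Ube2u with between 0 and 11 reads in any library, and Ube2uos, Ube2dnl1 and Ube2dnl2 with 0 reads in every library. A count of 0 allows up to 3 reads, or 0.158 to 0.320 CPM (counts per 1e+06 reads) depending on the library. This limit covers counting error alone. Of the 40, Ube2cbp encodes a protein that binds Ube2c and is itself no E2, Ube2uos is a noncoding RNA, and RefSeq lists Ube2nl as a pseudogene.

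The 6 SMART-seq2 libraries came from muscle stem cells of C57BL/6 mice aged 3 months, sorted by fluorescence, with no other genotype or treatment named. They were 2 libraries of CPEB4 RIP, 2 of RIP with IgG, a nonspecific antibody, and 2 of input, total RNA of the same cell type. The design text calls the CPEB4 RIP libraries biological replicates. It does not name the animals or any pooling, and each p-value therefore rests on the spread between these libraries, some of which may be technical. In such bulk libraries fewer cells of a type and less RNA per cell cannot be told apart.

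Ubiquitin is passed from an E1 activating enzyme to the catalytic cysteine of an E2, which then works with an E3 ligase to place it on a substrate. Each E2 has preferred E3 partners and chain types, and some E2s carry ubiquitin-like proteins such as NEDD8 in its place. Ubiquitin conjugation feeds the proteasome and is known in muscle for its part in protein turnover. CPEB4 belongs to a family of RNA-binding proteins that recognise a U-rich element in the 3′ end of messages and regulate poly(A) length and translation.

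Total counts were 9018323 to 20843042 per library. Pearson r of log CPM between replicates, across 18054 genes, was 0.981 for CPEB4 RIP, 0.873 for IgG RIP and 0.975 for input, and the IgG RIP pair had the lowest r of all pairs of libraries. Among the 33 tested members the median gap between replicates, as log2(CPM + 0.5), was 0.14 for CPEB4 RIP, 0.33 for IgG RIP and 0.30 for input. All 10 muscle stem cell markers were detected in every library, and their summed level was 62898 and 68763 CPM in CPEB4 RIP, 62384 and 61066 CPM in IgG RIP, and 46019 and 47250.1 CPM in input, most of it Sdc4. Pax7, the defining transcription factor, stood at 290 and 265 CPM in CPEB4 RIP, 189 and 282 CPM in IgG RIP, and 151 and 174 CPM in input.

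As a whole the family took more of the CPEB4 RIP libraries than of the others. The members summed to 6179 and 6619 CPM in CPEB4 RIP, 4286 and 5301 CPM in IgG RIP, and 3838 and 5003 CPM in input. Both CPEB4 RIP libraries were above the other 4. Ube2d3 alone held between 33.2% and 38.2% of the members' reads in each library. Without Ube2d3 the sums were 3925 and 4229 CPM in CPEB4 RIP, 2681 and 3278 CPM in IgG RIP, and 2566 and 3199 CPM in input, and the CPEB4 RIP libraries were again the highest. No test of these sums was run, because with 2 libraries a group the smallest two-sided p of an exact permutation test is 0.333.

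The comparison with IgG RIP, which the design text names, asks which messages were recovered with the CPEB4 antibody beyond those that come down with IgG. Of the 33 members tested, 7 were higher in CPEB4 RIP, 0 were lower and 26 did not pass (edgeR's quasi-likelihood test, Benjamini-Hochberg adjusted p below 0.05 over all genes). The higher share was 21.2% of the members, beside 4.79% of all genes, while 3.42% of all genes were called lower and 8.21% either way. The median log2 fold change was 0.50 over the members, beside -0.07 over all genes tested. The 7 were Ube2r2, Ube2q1, Ube2m, Ube2d2a, Ube2k, Ube2j2 and Ube2f. Both CPEB4 RIP libraries were above both IgG RIP libraries for 22 members, below them for 0, and overlapped them for 11, while 29.4% of all genes were above and 25.5% below.

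Over input, 9 of the 33 passed as higher and 0 as lower, which left 24. That is 27.3% of the members, beside 8% of all genes called higher, 4.7% called lower and 12.7% either way, and the median log2 fold change was 0.48 over the members and -0.06 over all genes. Ube2r2, Ube2m, Ube2d2a, Ube2k and Ube2j2 were called here too, with Ube2a, Ube2q2, Ube2s and Ube2z. Both comparisons use the same CPEB4 RIP libraries, so the second is not independent of the first. Both CPEB4 RIP libraries were above both input libraries for 21 members, below them for 1 and overlapped them for 11, while 34.4% of all genes were above and 37.6% below. The member below was Ube2v2.

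Some markers of other cell types were higher in CPEB4 RIP as well, and none of the 26 markers was at 0 in any library. Over IgG RIP 3 of 5 erythroid, 3 of 5 myofibre, 1 of 5 leukocyte, 1 of 4 endothelial, 1 of 4 fibro-adipogenic and 0 of 3 smooth muscle and pericyte markers were higher, and 0 were lower. Their summed level was 657 and 327 CPM in CPEB4 RIP, 86.8 and 147 CPM in IgG RIP, and 109 and 179 CPM in input for the erythroid list. For the myofibre list it was 232 and 182 CPM in CPEB4 RIP, 102 and 129 CPM in IgG RIP, and 106 and 165 CPM in input. The sums were 358 and 247 CPM in CPEB4 RIP, 145 and 206 CPM in IgG RIP, and 134 and 154 CPM in input for the endothelial list. The fibro-adipogenic and leukocyte sums in CPEB4 RIP were likewise above those in the other groups, while those of smooth muscle and pericytes overlapped. Of the 10 muscle stem cell markers 0 were higher and 1, Vcam1, was lower over IgG RIP. Their median log2 fold change there was -0.01, beside 0.50 for the Ube2 members. Over input, 3 of 5 erythroid, 3 of 5 myofibre, 1 of 5 leukocyte, 2 of 4 endothelial, 1 of 4 fibro-adipogenic and 0 of 3 smooth muscle and pericyte markers were higher, and 0 were lower. Over input 2 of the 10 muscle stem cell markers were higher and 2 lower, with a median of 0.64, above the Ube2 median of 0.48. The part of these cells in the values of the Ube2 messages was not tested.

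These counts moved with single libraries, and so did those of all genes. The filter kept 20426 to 22420 genes in the fits without 1 library. Without IgG RIP replicate 1, 15 of 33 members were higher over IgG RIP (45.5%, beside 23.6% of all genes) and 2 were lower (beside 13.4%). Without IgG RIP replicate 2, 20 of 34 members were higher (58.8%, beside 18.5% of all genes) and 0 lower (beside 16.5%). In both fits members and other genes alike passed far more often than with all libraries. Without CPEB4 RIP replicate 1, 2 of 34 members were higher over IgG RIP (5.88%, beside 0.861% of all genes). Without CPEB4 RIP replicate 2 edgeR called 0 members and 0 genes, with 10 members and 2312 genes at an unadjusted p under 0.05. Leaving out either input library left 6 of 34 members higher over IgG RIP (17.6%, beside 3.68% of all genes without replicate 1 and 3.51% without replicate 2).

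Over input, the members' median log2 fold change stayed between 0.37 and 0.69 in the fits without 1 library. That of all genes lay between -0.19 and -0.08. Leaving out CPEB4 RIP replicate 1 left 4 members higher (11.8%, beside 2.34% of all genes), and leaving out CPEB4 RIP replicate 2 left 1 (2.94%, beside 0.439%). Leaving out input replicate 1 left 1 (2.94%, beside 1.73%), and leaving out input replicate 2 left 8 (23.5%, beside 2.45%). There were 19 members higher without IgG RIP replicate 1 (57.6%, beside 20.2%) and 19 without IgG RIP replicate 2 (55.9%, beside 19.7%). The 2 members lower over IgG RIP without IgG RIP replicate 1, Ube2v2 at -0.78 and Ube2g1 at -0.64, stood at 0.19 and 0.21 without IgG RIP replicate 2 and did not pass there. The median over IgG RIP was 0.53 for the members and 0.33 for all genes without IgG RIP replicate 1, against 0.73 and 0.01 without IgG RIP replicate 2.

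IgG RIP with input showed no member past the test, among 0 of all 18054 genes (0% in each direction), with a median of 0.09 for the members and 0.05 for all genes. The members' median had no steady sign: it was -0.15 without IgG RIP replicate 2, -0.18 without input replicate 1 and 0.17 without input replicate 2. At an unadjusted p under 0.05 there were 3 members and 2550 genes, and DESeq2's Wald test called 0 members and 706 genes. The 3 members were Ube2q2 (log2 fold change 0.85), Ube2m (0.63) and Ube2z (0.49), each higher in both IgG RIP libraries than in both input libraries. In all, both IgG RIP libraries were above both input libraries for 5 members and below them for 2, and for 21.4% and 20.7% of all genes. Without IgG RIP replicate 1, 4 members were higher and 1 lower in the remaining IgG RIP library than in input, beside 11% of all genes higher and 20.9% lower.

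**Figure D1:**
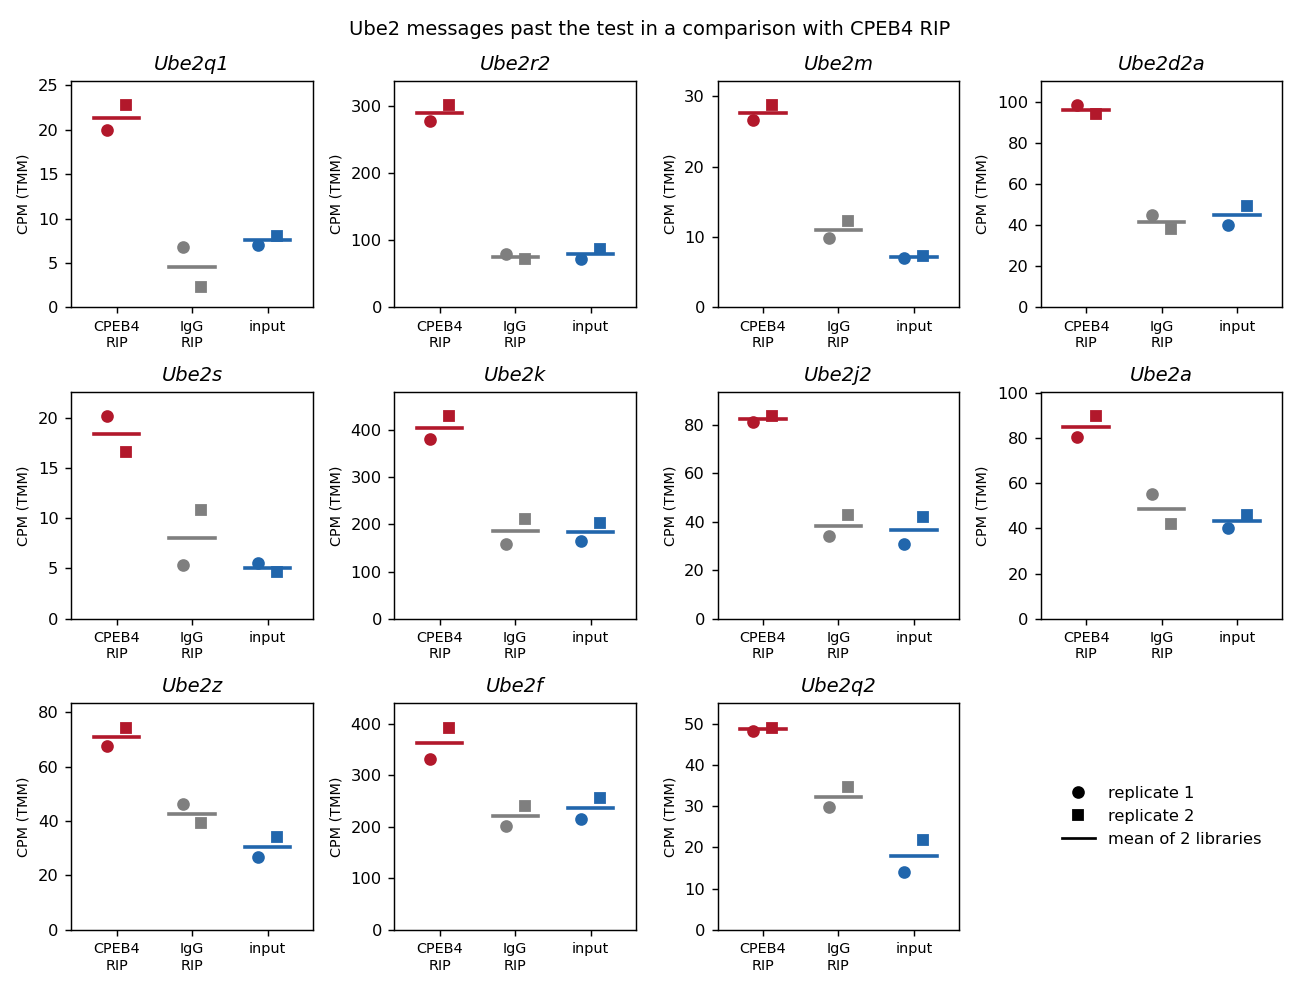
CPM scaled by TMM (vertical axes, from 0) for the 11 Ube2 messages past the test in a comparison with CPEB4 RIP, by group along the horizontal axis. Circles are replicate 1, squares replicate 2 and lines the mean of 2 libraries. Both CPEB4 RIP points lie above the 4 others in each panel, for Ube2r2 at 278 and 301 CPM. The panels were picked by the test on these same libraries, so that order follows largely from the choice.

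Ube2r2 was the member with the smallest p in both comparisons. It encodes a relative of Cdc34 that builds ubiquitin chains on substrates of cullin-RING ligases. It lies on chromosome 4, 41136021 to 41193370 (GRCm38, mm10). Ube2r2 had 278 and 301 CPM in CPEB4 RIP, 79.1 and 71.8 CPM in IgG RIP, and 72.3 and 86.7 CPM in input. The CPEB4 RIP libraries lay far above the 4 others, and IgG RIP overlapped input. Its log2 fold change was 1.94 over IgG RIP (SE 0.17, adjusted p = 0.00542 in edgeR) and 1.86 over input (SE 0.16, adjusted p = 0.00184). Over input it was called in 14 of 15 other settings, and the log2 fold change stayed between 1.76 and 2.04; over IgG RIP it was called in 13 of 15, between 1.92 and 2.20. Over IgG RIP it did not pass in the fit that left out CPEB4 RIP replicate 2 (1.93), and both calls were lost in limma on log2(FPKM + 0.1).

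Cdc34 itself carries no Ube2 symbol, and its values stand beside those of Ube2r2. Cdc34 had 20.6 and 17.9 CPM in CPEB4 RIP, 2.03 and 5.36 CPM in IgG RIP, and 5.33 and 6.17 CPM in input. It rose by 2.36 on the log2 scale over IgG RIP (SE 0.47, adjusted p = 0.0267 in edgeR) and by 1.74 over input (SE 0.45, adjusted p = 0.0447). It was the single gene that passed among 8 tested genes with an E2 fold and another symbol, in either comparison. The other 7 included Ufc1, the E2 for the modifier UFM1, at 0.70 over IgG RIP (adjusted p = 0.0521), and Birc6, a giant hybrid of E2 and E3, at -0.62 (adjusted p = 0.0925).

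The E2s of NEDD8, a modifier that activates cullins, were Ube2m and Ube2f. Ube2m works with most cullins through Rbx1, and Ube2f with Cul5 through Rnf7. Ube2m (chromosome 7, 13035120 to 13038275) had 26.6 and 28.7 CPM in CPEB4 RIP, 9.81 and 12.3 CPM in IgG RIP, and 6.96 and 7.34 CPM in input. The 3 groups were ordered without overlap, with IgG RIP between the others. Ube2m rose by 1.32 over IgG RIP (SE 0.26, adjusted p = 0.0262 in edgeR) and by 1.95 over input (SE 0.27, adjusted p = 0.00521), the widest rise over input among the members. Leaving out CPEB4 RIP replicate 1 or 2 ended the call over IgG RIP, and leaving out CPEB4 RIP replicate 2 or input replicate 1 ended that over input, at log2 fold changes of at least 1.31 and 1.93 over all fits without 1 library.

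Ube2f (chromosome 1, 91249690 to 91286521) had 331 and 392 CPM in CPEB4 RIP, 201 and 240.1 CPM in IgG RIP, and 215 and 256 CPM in input. CPEB4 RIP was above the other groups, which overlapped. Its log2 fold change was 0.71 over IgG RIP (SE 0.17, adjusted p = 0.0476 in edgeR), just inside the threshold, and 0.62 over input (adjusted p = 0.0569), just outside. Leaving out CPEB4 RIP replicate 1 or 2 ended the call over IgG RIP, with log2 fold changes of 0.63 to 1.04 over the fits without 1 library. A fit of the 4 libraries compared and limma on unfiltered log2(FPKM + 1) ended it too.

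Messages of the partners of these E2s moved in both directions. Nedd8 itself had 240.2 and 263 CPM in CPEB4 RIP, 109 and 140.2 CPM in IgG RIP, and 106 and 120.4 CPM in input, and rose by 1.01 over IgG RIP (adjusted p = 0.0189 in edgeR) and 1.15 over input (adjusted p = 0.00761). Uba3, the catalytic subunit of the E1 for NEDD8, had 67.9 and 71.9 CPM in CPEB4 RIP, 73.6 and 77.1 CPM in IgG RIP, and 105 and 124 CPM in input. It stood at -0.11 over IgG RIP (adjusted p = 0.707) and fell by 0.71 over input (adjusted p = 0.0304). For IgG RIP over input it stood at -0.60 (adjusted p = 0.213). Nae1, the other subunit of that E1, stood at -0.26 over IgG RIP and -0.09 over input. Rnf7 rose by 1.07 and 1.08 over IgG RIP and input, and Rbx1 rose by 0.60 over input, with 0.49 over IgG RIP (adjusted p = 0.0853). Cul5 stood at -0.71 over IgG RIP (adjusted p = 0.135) and -0.95 over input (adjusted p = 0.0550).

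Ube2k, an E2 with a ubiquitin-binding domain that builds degradation chains, was among the more abundant members called. It lies on chromosome 5, 65537245 to 65598989. Ube2k had 380.4 and 429 CPM in CPEB4 RIP, 159 and 212 CPM in IgG RIP, and 165 and 204 CPM in input. The CPEB4 RIP libraries were the highest, and the other groups overlapped. The rise was 1.13 over IgG RIP (SE 0.19, adjusted p = 0.0184 in edgeR) and 1.14 over input (SE 0.19, adjusted p = 0.0108). Over IgG RIP it did not pass when CPEB4 RIP replicate 2 was left out (1.08), and the call over input ended without the same library or input replicate 1 (1.01 at the lowest). The noncoding gene Gm40309 overlaps Ube2k by 22316 bases and held a mean of 446 reads. SMART-seq2 does not mark strand, so reads of overlapping genes cannot be told apart.

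Ube2q1 and Ube2q2 encode E2s with a long extension before the catalytic domain. Ube2q1 (chromosome 3, 89773609 to 89783997) had 19.97 and 22.8 CPM in CPEB4 RIP, 6.82 and 2.34 CPM in IgG RIP, and 7.07 and 8.04 CPM in input. CPEB4 RIP was above the others, and the IgG RIP replicates differed widely. Ube2q1 was lower in both IgG RIP libraries than in both input libraries, at -0.74 for IgG RIP over input (adjusted p = 0.544 in edgeR). Its log2 fold change of 2.24 over IgG RIP (SE 0.49, adjusted p = 0.0353 in edgeR) was the widest of the members, and it was 1.79 without IgG RIP replicate 2 and 3.37 without replicate 1, both called. It did not pass in any of the 4 fits without a CPEB4 RIP or input library. Across all 15 other settings the value over IgG RIP ran from 1.24 to 3.37. The call was also lost in a fit of the 4 libraries compared and in limma on unfiltered log2(FPKM + 1). Over input Ube2q1 stood at 1.50 and did not pass (adjusted p = 0.0779).

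Ube2q2 (chromosome 9, 55149369 to 55207529) had 48.2 and 49.1 CPM in CPEB4 RIP, 29.7 and 34.7 CPM in IgG RIP, and 14.0 and 21.8 CPM in input. The 3 groups were ordered without overlap. The rise over input was 1.45 (SE 0.26, adjusted p = 0.0125 in edgeR), and the value over IgG RIP was 0.59 (adjusted p = 0.181). Leaving out CPEB4 RIP replicate 1 or 2, or input replicate 1, ended the call over input, at 1.18 to 1.81 over all fits without 1 library.

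Ube2z, the E2 that takes ubiquitin from the E1 Uba6, was ordered in the same way. Ube2z (chromosome 11, 96047431 to 96065364) had 67.5 and 74.4 CPM in CPEB4 RIP, 46.4 and 39.1 CPM in IgG RIP, and 26.9 and 34.2 CPM in input. It rose by 1.22 over input (SE 0.21, adjusted p = 0.0107 in edgeR) and stood at 0.73 over IgG RIP (adjusted p = 0.0693). It did not pass without CPEB4 RIP replicate 2 or input replicate 1 (1.07 at the lowest). Uba6 stood at -1.09 over IgG RIP (adjusted p = 0.167).

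Ube2d1, Ube2d2a, Ube2d2b, Ube2d3, Ube2e1, Ube2e2 and Ube2e3 encode E2s that work with many RING ligases. Of these 7 members 6 were tested, all but Ube2d2b, and Ube2d2a was the one that passed, in both comparisons. Of all genes, 4.79% were higher over IgG RIP and 8% over input, and a group this small allows no reading of its count. Ube2d2a had 98.2 and 93.9 CPM in CPEB4 RIP, 44.8 and 38.0 CPM in IgG RIP, and 40.1 and 49.5 CPM in input. Both CPEB4 RIP libraries were above the 4 others. It rose by 1.22 over IgG RIP (SE 0.19, adjusted p = 0.0145 in edgeR) and by 1.10 over input (SE 0.19, adjusted p = 0.0110). Without CPEB4 RIP replicate 1 or 2 both calls were lost, and without input replicate 1 the call over input, while the log2 fold change was at least 0.97 in every fit without 1 library.

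Its relative Ube2d3 was the most read member. Ube2d3 had 2254 and 2390 CPM in CPEB4 RIP, 1605 and 2023 CPM in IgG RIP, and 1273 and 1804 CPM in input. The CPEB4 RIP libraries were the highest, but by less than the gap between the replicates of input. The log2 fold change was 0.36 over IgG RIP (adjusted p = 0.282 in edgeR) and 0.59 over input (adjusted p = 0.0907), and whether Ube2d2a and Ube2d3 differ was not tested. Ube2e2 stood at 0.87 over IgG RIP (adjusted p = 0.0581) and Ube2e3 at 0.76 (adjusted p = 0.114), and over input at 0.78 (adjusted p = 0.0643) and 0.79 (adjusted p = 0.0905). The coding parts of Ube2d genes are close in sequence, and the row Ube2d-ps, left out here, held 68 to 507 reads. The counting of reads that match more than 1 gene is not known, and values within this group are uncertain for that reason.

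E2s of endoplasmic reticulum-associated degradation, which clears misfolded proteins from the secretory pathway, had 1 of 4 members past the test in each comparison. The shares of all genes called higher were 4.79% over IgG RIP and 8% over input. The member that passed was Ube2j2, an E2 anchored in the membrane of that compartment (chromosome 4, 155943813 to 155959604). Ube2j2 had 81.3 and 83.5 CPM in CPEB4 RIP, 34.0 and 42.7 CPM in IgG RIP, and 31.0 and 42.0 CPM in input. CPEB4 RIP was above the others, which overlapped. It rose by 1.10 over IgG RIP (SE 0.22, adjusted p = 0.0266 in edgeR) and by 1.18 over input (SE 0.22, adjusted p = 0.0146). Without CPEB4 RIP replicate 1 or 2 both calls were lost, and without input replicate 1 that over input, at no less than 0.99.

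The other membrane-anchored member, Ube2j1, had 360.0 and 393 CPM in CPEB4 RIP, 260 and 349 CPM in IgG RIP, and 315 and 362 CPM in input. CPEB4 RIP overlapped input, and the values were 0.31 over IgG RIP (adjusted p = 0.314 in edgeR) and 0.16 over input (adjusted p = 0.611). Ube2g2, which works with ligases of the same membrane, had 248 and 214 CPM in CPEB4 RIP, 283 and 246 CPM in IgG RIP, and 240 and 282 CPM in input. All 3 groups overlapped, with values of -0.20 over IgG RIP (adjusted p = 0.472) and -0.18 over input (adjusted p = 0.516).

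E2s of DNA repair and chromatin had 0 of 5 members past the test over IgG RIP and 1, Ube2a, over input. The shares of all genes called higher were 4.79% and 8%. Ube2a and Ube2b are the mouse homologues of yeast Rad6 and place ubiquitin on histone H2B and on PCNA. Ube2a (chromosome X, 36874295 to 36884222) had 80.6 and 89.7 CPM in CPEB4 RIP, 55.4 and 42.0 CPM in IgG RIP, and 40.1 and 46.1 CPM in input. Both CPEB4 RIP libraries were the highest. The rise over input was 0.98 (SE 0.20, adjusted p = 0.0205 in edgeR), and the value over IgG RIP was 0.81, just outside the threshold (adjusted p = 0.0515). The call over input was lost in each of the 4 fits without a CPEB4 RIP or input library, at 0.90 or more.

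Ube2b had the highest level per length of the members, with a mean of 159 FPKM in CPEB4 RIP, 106 FPKM in IgG RIP and 114 FPKM in input. Ube2b had 445 and 495 CPM in CPEB4 RIP, 319 and 346 CPM in IgG RIP, and 303 and 371 CPM in input. CPEB4 RIP was above both groups, which overlapped. The values of 0.50 over IgG RIP (adjusted p = 0.0909 in edgeR) and 0.48 over input (adjusted p = 0.0902) did not pass. Ube2n, which builds chains of signalling and repair together with a variant E2, stood at 0.32 over IgG RIP (adjusted p = 0.362) and 0.42 over input (adjusted p = 0.241). Its partner Ube2v2, a variant with no catalytic cysteine, had the lowest value of the members over IgG RIP, at -0.54 (adjusted p = 0.345), and stood at -0.44 over input (adjusted p = 0.431).

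The anaphase-promoting complex (APC/C), the ligase that drives cells out of mitosis, uses Ube2c to start chains and Ube2s to extend them. Ube2s (chromosome 7, 4808014 to 4812340) had 20.1 and 16.6 CPM in CPEB4 RIP, 5.33 and 10.8 CPM in IgG RIP, and 5.49 and 4.61 CPM in input. Both CPEB4 RIP libraries were the highest, and the IgG RIP replicates lay far apart. It rose by 1.86 over input (SE 0.40, adjusted p = 0.0244 in edgeR) and stood at 1.18 over IgG RIP (adjusted p = 0.108). The call over input was lost in each of the 4 fits without a CPEB4 RIP or input library, at no less than 1.75. Ube2c, read 25 to 55 times per library, stood at 0.37 over IgG RIP (adjusted p = 0.699) and 1.07 over input (adjusted p = 0.253).

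Ube2l3 and Ube2h did not pass in either comparison. Ube2l3, the E2 of HECT and RBR ligases, stood at 0.17 (adjusted p = 0.644 in edgeR) and 0.58 (adjusted p = 0.124) over IgG RIP and input. Ube2h, the E2 of the CTLH ligase, had 357 and 387 CPM in CPEB4 RIP, 327 and 425 CPM in IgG RIP, and 314 and 390.2 CPM in input. All groups of Ube2h overlapped, and its log2 fold changes were -0.01 (adjusted p = 0.968) and 0.08 (adjusted p = 0.810).

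**Figure D2:**
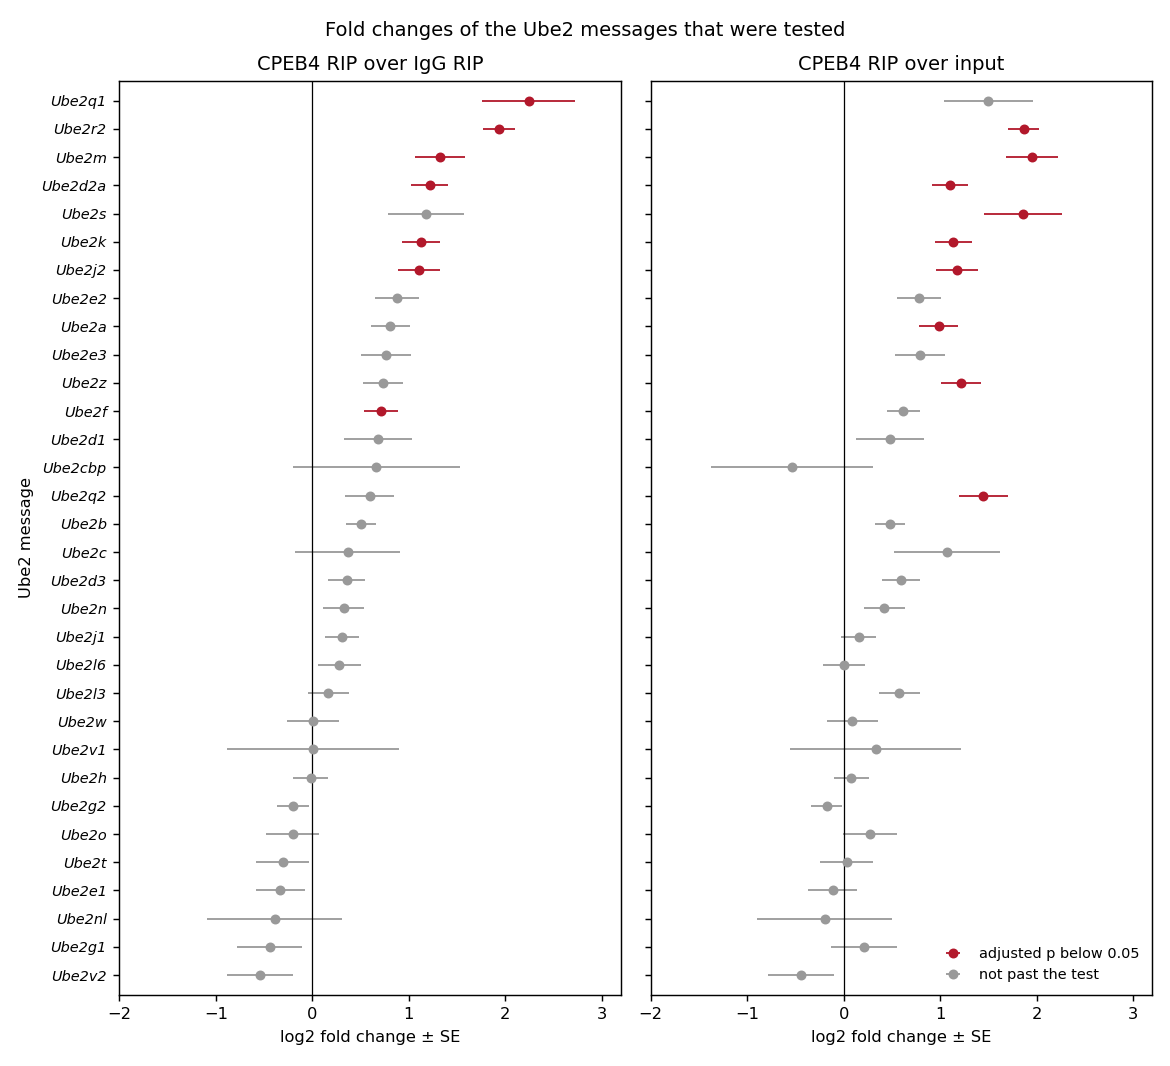
Log2 fold change with its SE (horizontal axes) of the Ube2 messages tested, all but 1 of the 33, ordered by the value over IgG RIP, with CPEB4 RIP over IgG RIP on the left and over input on the right. Red points passed an adjusted p of 0.05, 7 on the left and 9 on the right, and none of them lies below 0.

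The 11 members called in a comparison with CPEB4 RIP had medians of gene length and of level over all libraries close to those of the 22 others. No test of this was run. Gene length was inferred from the ratio of counts to FPKM and set relative to the median of all genes tested. It ran from 0.59 to 3.01 in these 11 (median 1.15), and from 0.12 to 6.38 in the 22 (median 1.15). Mean FPKM over all libraries ran from 1.28 to 25.2 in the 11 (median 8.43) and from 0.41 to 126 in the 22 (median 8.73). That mean includes the CPEB4 RIP libraries, in which the 11 were picked as higher, so this level is not independent of the choice. Medians of input level were not compared. The 5 members with the highest mean FPKM, Ube2b, Ube2g2, Ube2j1, Ube2d3 and Ube2h, all lay among the 22. With a correction for gene length, the median log2 fold change over IgG RIP was 0.52 for the members and -0.03 for all genes. Over input it was 0.57 for the members and -0.02 for all genes. The counts called with this correction are given further below, beside those of all genes.

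These 11 members made 16 calls, and all 16 values stayed above 0 under each of the 15 other settings. The calls were picked in these same libraries, so a steady sign lends them no further support. Their side of the threshold was less steady. Limma on unfiltered log2(FPKM + 1) ended the calls of Ube2f, Ube2j2, Ube2k and Ube2q1 over IgG RIP. Over input it ended those of Ube2j2, Ube2k, Ube2q2 and Ube2s. The fit of only the 4 libraries compared ended the calls of Ube2f and Ube2q1 over IgG RIP. Each of the 16 calls was lost in limma on log2(FPKM + 0.1), where 0 genes were called in either comparison, and 15 of the 16 were lost without CPEB4 RIP replicate 2.

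**Figure D3:**
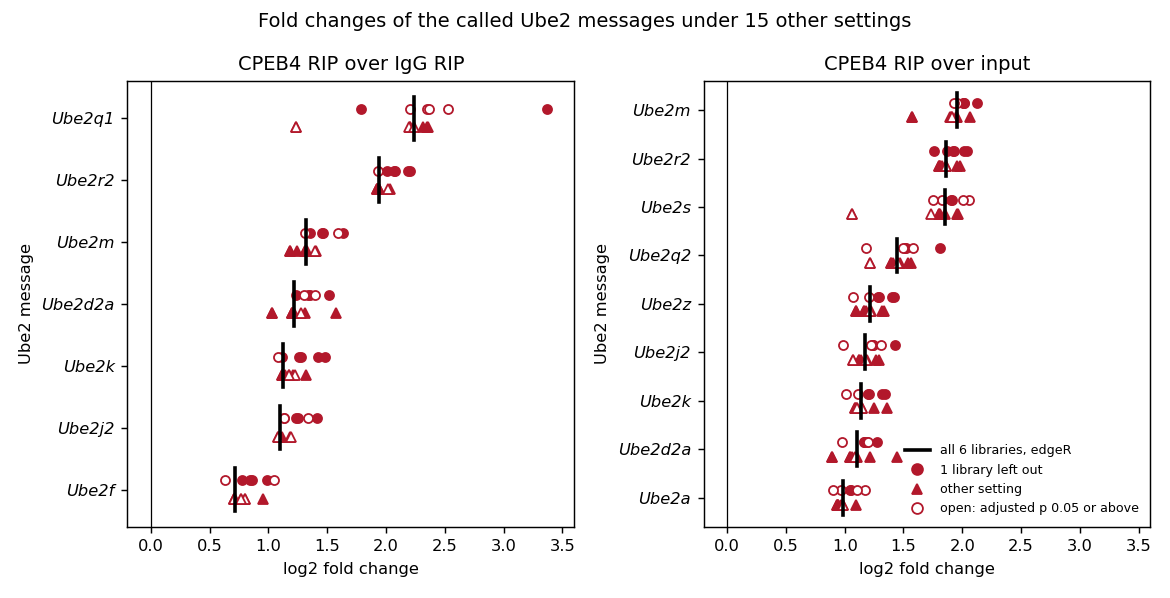
Log2 fold change (horizontal axes) of the members called over IgG RIP (left, 7) and over input (right, 9) in all 6 libraries (black line) and under 15 other settings. Circles leave out 1 library, triangles are other settings, and open symbols have an adjusted p of 0.05 or above. All points lie above 0, from 0.63 for Ube2f to 3.37 for Ube2q1, for calls picked in these same libraries.

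Other steps of the pathway were compared from lists drawn up with the members. Of all genes tested, 4.79% were higher and 3.42% lower over IgG RIP, and 8% were higher and 4.7% lower over input. Of 10 E1 genes tested 0 were higher and 0 lower over IgG RIP, with a median of -0.26, and 1 was higher and 2 lower over input, with a median of -0.21. Over input Uba2, an E1 subunit for SUMO, fell by 0.81 and Uba3 by 0.71. Of 13 ubiquitin and ubiquitin-like genes 3 were higher and 2 lower over IgG RIP, with a median of 0.75, and 5 were higher and 0 lower over input, with a median of 0.75. Nedd8, Rps27a (0.80) and Sumo3 (0.75) rose over IgG RIP, and Ubb (-0.71), a polyubiquitin gene, was among those that fell.

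Of 16 cullin-RING ligase genes 3 were higher and 3 lower over IgG RIP (median -0.31), and 4 were higher and 2 lower over input (median -0.06). The small adaptor Elob (1.06) and the RING protein Rnf7 rose over IgG RIP with the scaffold Cul3 (0.74), and Cul2 (-0.88), Ddb1 (-0.69) and the exchange factor Cand1 (-0.73) fell. Of 16 APC/C genes 4 were higher and 1 lower over IgG RIP (median 0.06), and 3 were higher and 3 lower over input (median -0.02). Anapc13 (1.48), Anapc16 (0.95) and Anapc11 (0.85), small subunits, rose over IgG RIP with Cdc26 (0.82), and Cdc23 (-1.08) fell. Of 42 other E3 ligases 2 were higher over IgG RIP, among them Siah1a (1.49), and 3 were lower, among them Pias1 (-1.03) and Fbxo32 (-1.66), with a median of -0.18. Over input 2 were higher and 6 lower, with a median of -0.17.

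**Figure D4:**
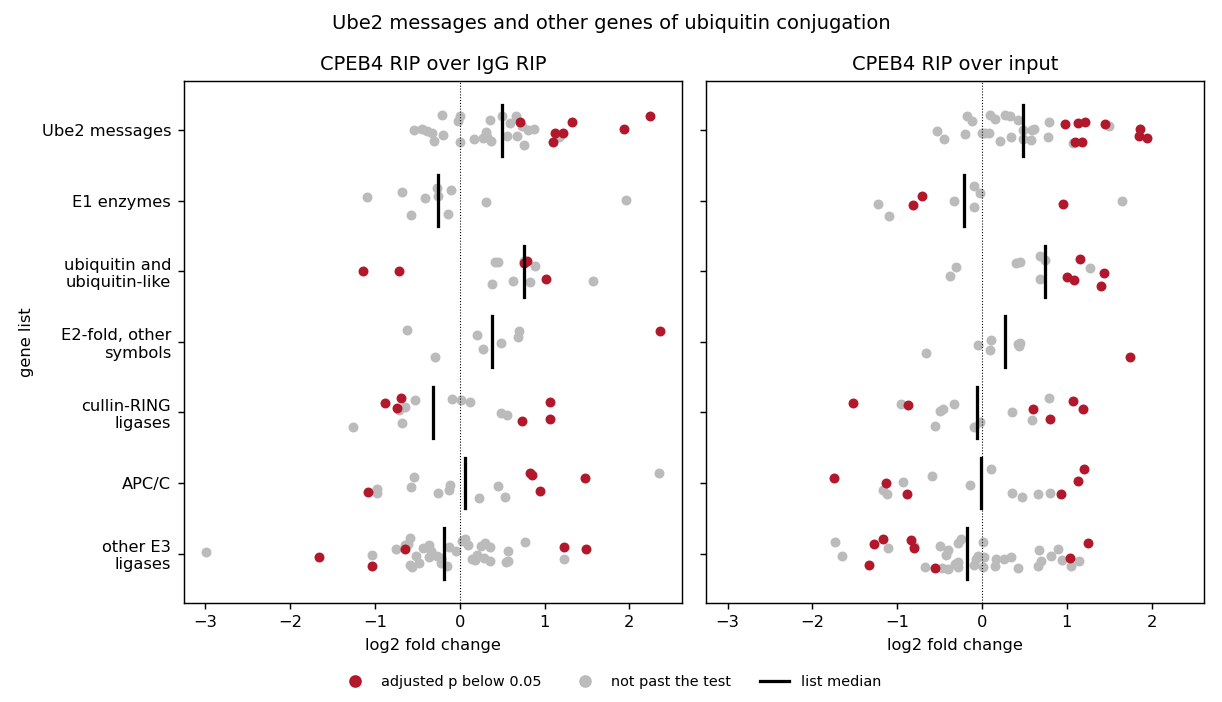
Log2 fold change (horizontal axes) of single genes in the Ube2 set and 6 other lists of ubiquitin conjugation (rows), for CPEB4 RIP over IgG RIP (left) and over input (right). Red points passed an adjusted p of 0.05, black bars are list medians, and vertical scatter within a row has no meaning. The Ube2 median is 0.50 on the left, and the ubiquitin-like list has 2 red points below 0.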

How the data were processed

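RNA of 6 libraries was sequenced as read pairs of 100 bases, per the labels. The authors deposited raw counts per gene and, in a second table, FPKM, for which the library total used was not stated. HISAT2, featureCounts and the mm10 build stand in the submitters' processing notes. Versions, gene annotation, strand setting and the treatment of reads with several matches: not given in the sources used here. RefSeq on GRCm38 held 39 of the 40 members, all but Ube2d4.

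From the counts, edgeR 4.0.16 (R 4.3.3) kept genes by filterByExpr (minimum count 10, minimum total 15), scaled libraries by TMM and fitted a quasi-likelihood model by group to the 6 libraries together (residual degrees of freedom 3). Tests were two-sided with Benjamini-Hochberg adjustment over 18054 genes. SE is the size of the log2 fold change over the square root of F, and CPM includes the TMM factors. Values by library are given for members called in a comparison with CPEB4 RIP and for the 5 with the highest mean FPKM, and up to 3 genes with the smallest p per pathway list and comparison are named. Outside that rule, Nedd8, Uba3, Nae1, Cul5, Rnf7 and Rbx1 as partners of described members, and the remaining genes named in the lists, were picked with their values in view. Values of some counted genes are not reported here. The members and lists were chosen with earlier results of these data known.

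Alternatives were DESeq2 1.42.0 (size factors; Wald test), no filter, only the 4 libraries compared, a replicate block, a gene length offset (loess, span 0.3), limma 3.58.1 on log2 FPKM with pseudocounts of 1 and 0.1 and without a filter, and leaving out each library. Tested on simulated data of 18054 genes for CPEB4 RIP over IgG RIP, edgeR found 44% of the genes given a 4-fold change and 8% of those given a 2-fold change, with 1.89% of its 53 calls false. In the same data 24.47% of 94 DESeq2 calls were false, and limma on log2(FPKM + 1) called 0 genes. The simulation gave each gene the same spread in all groups and changed few genes. In the real libraries the median replicate gap over all genes, as log2(CPM + 0.5), was 0.59 for IgG RIP and 0.22 for CPEB4 RIP. The simulated rates may therefore not hold there. Without molecular identifiers PCR copies are counted as separate reads, and floors cover counting error alone.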

Additional observations from a re-analysis of the deposited data

How the results depend on the processing

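Of 18054 genes tested, 1482 and 2294 were called over IgG RIP and input in either direction (8.21% and 12.7%). The members called, of 33 tested, were 7 and 9. In the same order, they were 10 and 14 among 2428 and 2930 genes without the low-count filter, 12 and 15 among 2892 and 3479 with DESeq2's Wald test, 5 and 16 among 973 and 7340 with only the 4 libraries compared, 8 and 11 among 925 and 1769 with the gene length offset, 4 and 6 among 762 and 1523 with limma on unfiltered log2(FPKM + 1), and 0 and 0 among 0 and 0 with limma on log2(FPKM + 0.1). All gene counts here are in either direction. The share of all genes called higher is not given for these other settings, nor for the replicate block below. The member counts there therefore stand without a background share. Without a filter 37 members and more genes were tested, beside 33 members in the other fits listed. With only the 4 libraries compared, far more of all genes were called over input as well, 7340 beside 2294. No member was called lower in these fits. For IgG RIP over input 0 members were called in them, among 457 genes without the filter, 706 with DESeq2, and with limma 1 (FPKM + 1), 10 (FPKM + 0.1) and 32 (unfiltered).

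The labels do not say whether same-numbered libraries share a preparation, and the pairing is not settled by the data. Their deviations correlated at 0.13 (CPEB4 RIP and IgG RIP), -0.02 (CPEB4 RIP and input) and 0.07 (IgG RIP and input). With the replicate block, 10 members were called over IgG RIP among 1850 genes, 13 over input among 2615, and 0 for IgG RIP over input among 25.

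Leaving out each library gave 0 to 7710 genes, 0 to 20 members higher and 0 to 2 lower over IgG RIP, 117 to 7966 genes, 1 to 19 higher and 0 lower over input, and 0 to 6657 genes, 0 to 4 higher and 0 to 1 lower for IgG RIP over input. Signs turned for Ube2g1 (-0.64 to 0.21), Ube2g2 (-0.16 to 0.086), Ube2h (-0.027 to 0.33) and Ube2v2 (-0.78 to 0.19) over IgG RIP, and for Ube2g1 (-0.12 to 0.67) and Ube2h (-0.050 to 0.26) over input. Ube2h over IgG RIP was also 0.067 without the filter, 0.085 in limma on log2(FPKM + 1) with and without the filter and 0.087 on log2(FPKM + 0.1). None of these passed the test in the fit of all 6 libraries, and the cause was not tested. Depth limits Ube2c, read 25 to 55 times per library.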
